A study of Homo sapiens with 12 samples.

Results

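The response to CC-885 in IRAK4 knockout THP-1 cells was measured as the 3 knockout libraries treated with CC-885 against the 3 knockout libraries treated with DMSO, 6 of the 12 libraries of the series. THP-1 is an established human line from a monocytic acute myeloid leukaemia, and the sample labels call the cells AML blasts from blood. Both knockout groups were IRAK4KO cells exposed for 12 h, the treated group to 50 nM CC-885 and the control group to an equal volume of the solvent DMSO. The 6 wild-type (WT) libraries, 3 per treatment at the same dose and time, are used below only to test where the knockout response differed. Every cell had been electroporated and regrown from a single cell, the knockout with a guide RNA against IRAK4. The sources conflict on whether the wild-type cells received Cas9, so the comparison of genotypes may also compare its presence. The sources used here do not give the number of clones behind each genotype or say whether replicates were separate cultures. A p-value therefore measures only the spread between these libraries, which may be technical, and the knockout cannot be told apart from differences between clones. The cell-line field of the labels counts upward from sample to sample, and the titles, which name THP1 throughout, were followed.

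CC-885 is a small molecule of the cereblon modulator class. It binds cereblon, the substrate receptor of a CUL4-DDB1 ubiquitin ligase, and brings the translation termination factor GSPT1 to the ligase for destruction by the proteasome. GSPT1 works with ETF1 to release finished proteins at stop codons, and its loss is known to activate the integrated stress response, in which phosphorylated eIF2 alpha lowers general translation while ATF4 and its targets are made. IRAK4 is a kinase that joins MYD88 beneath Toll-like and interleukin-1 receptors and is best known in monocytes for starting NF-kB and MAP kinase signalling.

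Promoter sequences are shown first for 6 genes picked by hand from those named below. All 6 hold a match, so they are examples and give no share of genes with a match. DUSP8 had one of the largest rises, PPP1R15A and NFKBIA are feedback inhibitors that rose, and UHRF1, MCM3 and PCNA are replication genes that fell. Each sequence is the 200 bases before the RefSeq transcription start on GRCh38.p14, written in the direction of transcription. Where a gene has several listed starts, the window with the most motif matches is shown, so the choice favoured a match in UHRF1 and PCNA. The windows are chr11:1572272-1572471 on the minus strand for DUSP8, chr19:48872221-48872420 on the plus strand for PPP1R15A, chr14:35404750-35404949 on the minus strand for NFKBIA, chr19:4909301-4909500 on the plus strand for UHRF1 (1 of its 3 listed starts), chr6:52284743-52284942 on the minus strand for MCM3 and chr20:5126623-5126822 on the minus strand for PCNA (1 of its 2 listed starts). Capitals mark a cyclic AMP response element (CRE, TGACGTCA), an NF-kB motif (GGANTTTCC) or an E2F motif (TTTGGCGC or TTTCCCGC), on either strand.
DUSP8: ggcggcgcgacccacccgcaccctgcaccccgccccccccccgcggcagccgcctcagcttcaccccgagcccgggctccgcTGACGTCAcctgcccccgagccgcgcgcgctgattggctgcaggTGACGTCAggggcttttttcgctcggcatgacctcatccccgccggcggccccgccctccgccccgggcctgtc
PPP1R15A: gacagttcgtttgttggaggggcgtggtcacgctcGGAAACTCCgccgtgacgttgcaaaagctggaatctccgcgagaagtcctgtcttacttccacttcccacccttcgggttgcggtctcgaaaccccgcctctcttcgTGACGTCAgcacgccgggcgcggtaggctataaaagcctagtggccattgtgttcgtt
NFKBIA: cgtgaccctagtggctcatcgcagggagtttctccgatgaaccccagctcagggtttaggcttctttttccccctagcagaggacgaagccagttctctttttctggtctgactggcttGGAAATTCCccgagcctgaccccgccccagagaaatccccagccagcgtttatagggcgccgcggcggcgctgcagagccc
UHRF1: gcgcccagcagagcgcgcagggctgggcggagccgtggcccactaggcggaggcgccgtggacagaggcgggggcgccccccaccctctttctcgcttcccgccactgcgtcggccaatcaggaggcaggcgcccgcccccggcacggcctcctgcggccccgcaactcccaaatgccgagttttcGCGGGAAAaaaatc
MCM3: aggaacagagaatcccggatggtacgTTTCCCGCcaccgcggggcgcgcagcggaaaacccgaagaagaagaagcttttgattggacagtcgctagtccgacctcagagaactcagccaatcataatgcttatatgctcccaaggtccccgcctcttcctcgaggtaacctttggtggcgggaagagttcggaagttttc
PCNA: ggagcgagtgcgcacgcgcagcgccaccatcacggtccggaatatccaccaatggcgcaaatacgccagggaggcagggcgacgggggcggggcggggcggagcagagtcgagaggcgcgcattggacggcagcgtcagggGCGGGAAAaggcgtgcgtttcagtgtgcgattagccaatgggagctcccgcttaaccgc
The DUSP8 window held 2 CRE matches, 118 to 111 and 74 to 67 bases before the start. In PPP1R15A a CRE lay 58 to 51 bases before the start and an NF-kB motif 165 to 157 bases before it. NFKBIA had an NF-kB motif 81 to 73 bases before the start. The E2F matches were 14 to 7 bases before the start in UHRF1, 174 to 167 in MCM3 and 59 to 52 in PCNA. No match overlapped another. Over whole promoter windows of 300 bases, an E2F match of either form was present in 17 of the 33 replication genes with a promoter in the table (51.5%), against 2.75% of all 27305 genes in that table. The NF-kB motif was present in 9 of 16 NF-kB subunit and inhibitor genes (56.2%), against 2.01% of all genes, and the CRE in 7 of 43 histone genes (16.3%), against 2.25% of all genes. Of the 16010 genes tested, 11623 (72.6%) had an entry, so no share over all tested genes is given. Among those 11623 genes, an E2F match of either form was present in 4.43%, the NF-kB motif in 2.25% and the CRE in 3.65%. A match describes letters in the window and does not show binding.

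Totals in the 6 knockout libraries were 47388925 to 56675539 counts, and 18757 to 19069 symbols had a count in each. Levels are counts relative to library size after TMM scaling (CPM), which centres changes on the bulk of genes, so they are relative and not amounts per cell. Fewer cells of a type and less RNA per cell cannot be told apart in such samples. CPM is not divided by gene length, so levels are compared between libraries and not between genes. Replicates of a group differed by more than counting noise, by chi-square (13 to 21.2 per degree of freedom between DMSO libraries, 4.13 to 12.7 between CC-885 libraries). DMSO replicate 3 is the only knockout library whose name has the prefix 52, not 51. What the prefix marks is not stated, so named results that depend on this library are also given without it, here or under the processing alternatives. All 8 monocytic markers (LYZ, CD33, SPI1, ITGAM, CSF1R, CD14, TYROBP, ITGB2) were measured. Marker sums by library are relative to the library total alone, without TMM scaling. The 8 monocytic markers summed to 3388 to 4600 CPM under DMSO, lowest in replicate 3, and to 1431 to 1468 CPM under CC-885. With TMM scaling their group means summed to 3981 and 1486 CPM. The summed markers of T and NK cells were at 18.1 to 21.4 CPM and 5.01 to 6.12 CPM. NKG7 made up most of that sum, and 3 of its 10 markers were at 0. B cell markers summed to 3.39 to 4.14 CPM under DMSO and 1.98 to 2.18 CPM under CC-885. Erythroid markers summed to 9.90 to 13.5 CPM and 4.89 to 5.44 CPM, and epithelial, stromal and endothelial markers to 5.04 to 6.18 CPM and 1.88 to 2.06 CPM.

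IRAK4, the edited gene, lies on chromosome 12 (43758944 to 43789543, plus strand, GRCh38). Its transcript read 7.28, 8.72 and 8.78 CPM in the knockout DMSO libraries and 31.7, 30.8 and 29.6 CPM in the knockout CC-885 libraries. The rise was 1.89 ± 0.096 on the log2 scale (adjusted p = 2.44e-11). All 6 knockout libraries lay below the 6 wild-type ones, which were at 53.9, 50.9 and 51.6 CPM with DMSO and 65.4, 69.4 and 83.6 CPM with CC-885. The counts show neither where the gene was cut nor how much protein was left.

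Of 16010 genes tested, 6229 (38.9%) were higher and 6398 (40.0%) lower under CC-885 in knockout cells at an adjusted p under 0.05, or 78.9% in either direction. The changes were large as well as many, since 3436 genes (21.5%) rose and 3227 (20.2%) fell at least 2-fold. Rises reached further than falls: 1158 genes were at least 4-fold higher and 939 at least 4-fold lower, and 205 against 31 passed 16-fold. The median log2 change over all genes was -0.03, with quartiles of -0.83 and 0.85. With this many genes called, a list of any kind holds many called members, so each list below is read against 38.9% higher, 40.0% lower and that median. Under upper-quartile scaling that median shifted by -0.15, with 5576 calls higher and 7158 lower.

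**Figure D1:**
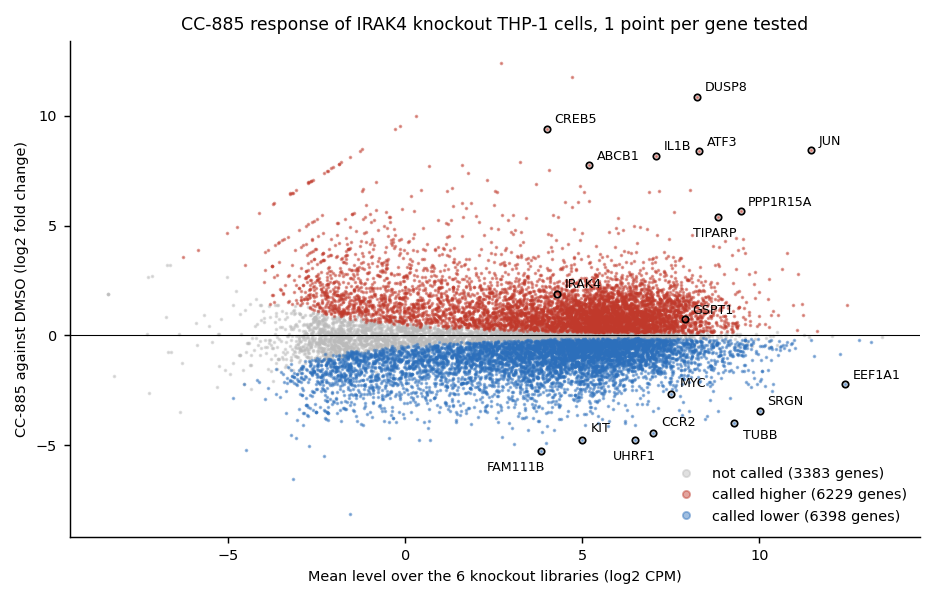
Log2 fold change under CC-885 against DMSO in knockout cells (vertical axis) over mean level in the 6 knockout libraries (horizontal axis, log2 CPM), 1 point per gene, coloured by call at an adjusted p under 0.05, with named genes labelled. The cloud spreads to both sides of 0, DUSP8 has the highest labelled point at 10.86, UHRF1 and KIT are among the lowest labelled at -4.76 and -4.75, and 13 tested genes without a count in these 6 libraries are not drawn.

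One of the largest rises was that of DUSP8, a phosphatase that switches off the stress-activated MAP kinases JNK and p38. It read 0.2802, 0.4196 and 0.258 CPM with DMSO and 597, 604 and 610.2 CPM with CC-885, a rise of 10.86 ± 0.13 (adjusted p = 4.08e-18). The gene went from near the detection limit in every DMSO library to a high level in every CC-885 library. ABCB1, a drug efflux pump, went from 0.3402, 0.227 and 0.457 CPM to 74.7, 68.4 and 75.2 CPM, a rise of 7.74 ± 0.17 (adjusted p = 2.62e-15). MB21D2, a gene of little known function related to the DNA sensor cGAS, read 0.2201, 0.2098 and 0.0993 CPM and then 35.9, 32.3 and 30.2 CPM, a rise of 7.51 ± 0.20. HCAR2, the niacin and hydroxybutyrate receptor of myeloid cells, read 0.020, 0.035 and 0.0199 CPM with DMSO and 6.66, 5.53 and 5.903 CPM with CC-885 (7.76 ± 0.28). Separate groups were a condition for naming these 4 genes, so their lack of overlap was fixed by the choice. The same holds for the other largest rises and falls named below, such as JUN, IL1B, HIST1H1E and UHRF1. Many list members were named for a small p, which also favours separate groups. Among all called genes, 75 of 6229 higher and 115 of 6398 lower had overlapping groups, so separation was the usual case.

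Large falls were found in genes of several kinds. CCR2, the receptor that brings monocytes to the chemokine CCL2, read 229.6, 252 and 243 CPM with DMSO and 11.5, 11.3 and 10.4 CPM with CC-885 and fell by 4.45 ± 0.095 (adjusted p = 1.37e-15). AOC1, a diamine oxidase that breaks down histamine, read 101, 91.8 and 108 CPM and then 5.17, 6.16 and 6.09 CPM and fell by 4.11 ± 0.093. SERPINB2, the plasminogen activator inhibitor of monocytes, read 181, 169 and 162 CPM and then 9.17, 10.02 and 11.1 CPM and fell by 4.08 ± 0.27. These 3 genes had tight groups far apart, and separate groups were again a condition for naming them. CIDEB, a lipid droplet protein, fell by 4.28 ± 0.13 from 36.4, 35.5 and 32.9 CPM to 1.58, 2.09 and 1.72 CPM. TIFAB, an inhibitor of TRAF6 signalling, fell by 4.23 from 17.4, 16.9 and 11.6 CPM to 0.753, 0.877 and 0.819 CPM, and CBX2, a polycomb protein that reads histone methylation, fell by 4.31.

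Among 17 genes of translation termination and ribosome rescue, 11 rose and 3 fell, with a median log2 change of 0.72. ETF1, which recognises stop codons and partners GSPT1, read 183, 209 and 212 CPM with DMSO and 707, 700.0 and 699.5 CPM with CC-885, a rise of 1.80 ± 0.064 (adjusted p = 3.43e-13). GTPBP2, a GTPase that rescues stalled ribosomes, read 99.3, 89.8 and 90.5 CPM and then 365, 366 and 371 CPM, a rise of 1.98 ± 0.071. Both groups were separate in both genes. NEMF and LTN1, which tag and ubiquitinate stalled nascent chains, rose by 1.51 and 1.12, and ASCC3, a helicase that takes collided ribosomes apart, rose by 1.21. GSPT1 itself rose by 0.72 and its paralogue GSPT2 by 0.72. PELO and ABCE1, which split ribosomes after a stall, went the other way and fell, with log2 changes of -1.0 and -0.93.

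The cereblon ligase and its known neosubstrates were split, with 4 of 14 tested members higher, 7 lower and a median of -0.14. CRBN, cereblon itself, rose by 1.06 ± 0.22, whereas its ligase partners DDB1, CUL4A and RBX1 were lower, at -0.90, -0.68 and -1.15. CSNK1A1, a kinase that is a neosubstrate of related drugs, rose by 1.89. The lymphoid transcription factors IKZF1 and IKZF3 had log2 changes of -1.41 and -2.40. The values are of transcripts, and the degradation of proteins cannot be read from them.

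Stress transcription factors rose nearly as a block, with 14 of 15 higher, 1 lower and a median of 2.48. ATF3, a repressor made in many stresses, read 1.96, 1.75 and 1.97 CPM with DMSO and 629.6, 625 and 636 CPM with CC-885, a rise of 8.38 ± 0.094 (adjusted p = 2.05e-18). ATF4, the main effector of the integrated stress response, rose by 2.87, and its partner DDIT3 (CHOP), which promotes cell death, by 4.56. XBP1 and ATF6, which belong to the unfolded protein response, rose by 2.48 and 1.58. CEBPD was the member that fell, at -1.14. The 11 kinases and phosphatases of eIF2 alpha had no common direction, with 5 higher and 4 lower at a median of 0.14, or 4 and 4 under upper-quartile scaling. PPP1R15A (GADD34), the inducible subunit that strips phosphate from eIF2 alpha, read 29.5, 27.3 and 26.99 CPM with DMSO and 1399.9, 1364 and 1425 CPM with CC-885, a rise of 5.64 ± 0.069 (adjusted p = 4.08e-18). Its groups lay far apart, while PPP1R15B, the constitutive counterpart, rose by 1.40. Of the kinases, EIF2AK3 (PERK) rose by 0.31, EIF2AK4 (GCN2) and EIF2AK1 (HRI) fell, with log2 changes of -0.44 and -0.38, and EIF2AK2 (PKR) did not pass the test at 0.12 ± 0.12.

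Genes that ATF4 is known to drive did not rise together. Of 17 genes of serine, one-carbon and asparagine synthesis, 8 rose and 7 fell at a median of -0.09, and upper-quartile or library-size scaling gave 8 and 9. CTH, which makes cysteine, read 1.54, 1.82 and 1.89 CPM with DMSO and 10.4, 11.2 and 12.7 CPM with CC-885, a rise of 2.70 ± 0.13. ASNS, the asparagine synthetase, rose by 2.26 and MTHFD2 of mitochondrial folate metabolism by 1.14. PSAT1 and PSPH, which complete serine synthesis after PHGDH, were lower, at -0.27 and -0.24, although PHGDH rose by 0.63. MTHFD1, which serves nucleotide synthesis, fell by 1.30. Of 21 amino acid transporters 11 rose and 7 fell, with a median of 0.25. SLC7A11, the cystine importer, read 3.58, 4.74 and 5.66 CPM and then 46.4, 41.05 and 37.6 CPM, a rise of 3.16 ± 0.20, and its heavy chain SLC3A2 rose by 2.42. SLC1A3, SLC7A7 and SLC6A6 fell, with log2 changes of -1.84, -1.61 and -1.50.

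Aminoacyl-tRNA synthetases were listed by compartment. Of 20 cytosolic synthetases 14 rose and 4 fell, with a median of 0.55. TARS, which charges threonine tRNA, read 141, 166 and 143 CPM with DMSO and 705, 678 and 700.3 CPM with CC-885, a rise of 2.21 ± 0.067 (adjusted p = 5.93e-14). CARS, GARS and MARS rose by 2.18, 2.02 and 1.82, and QARS fell by 0.95. Of 17 mitochondrial synthetases 6 rose and 10 fell, with a median of -0.42. CARS2 fell by 1.37, and WARS2 rose by 1.31.

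**Figure D2:**
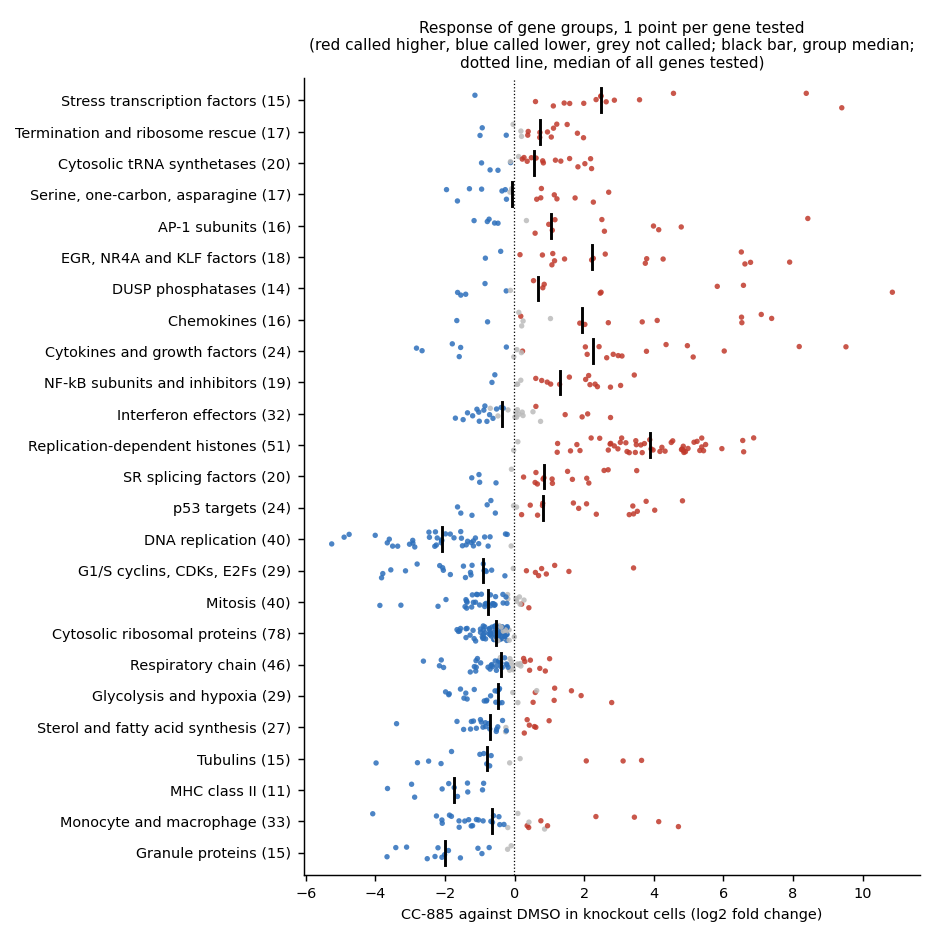
Log2 fold change under CC-885 against DMSO in knockout cells (horizontal axis) for the tested members of 25 gene lists (rows, with the number tested beside each name), 1 point per gene, red where called higher, blue where called lower and grey where not called. Black bars are list medians, the dotted line is the median of all 16010 genes, and the height of a point within its row carries no value. Stress factors, EGR, NR4A and KLF factors and replication-dependent histones lie mostly on the higher side, and DNA replication, MHC class II and granule genes on the lower side.

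Many transcription factors of the immediate early class rose. Of 16 AP-1 subunits 10 rose and 5 fell, with a median of 1.03. JUN, a main AP-1 subunit and JNK substrate, read 18.03, 17.05 and 14 CPM with DMSO and 5697, 5537 and 5645 CPM with CC-885, a rise of 8.43 ± 0.13. JUND, its more constant relative, read 90.2, 79.1 and 91.98 CPM and then 1340.4, 1396 and 1415 CPM, a rise of 3.99 ± 0.092 (adjusted p = 2.93e-15). Every CC-885 library was far above every DMSO library in both genes. FOSB and FOS rose by 4.79 and 2.51, and BATF3 and MAFG had log2 changes of -1.17 and -0.79. Of 18 EGR, NR4A and KLF factors 16 rose and 2 fell, with a median of 2.24. EGR1, a growth-factor response gene, read 5.14, 5.23 and 5.58 CPM and then 520.3, 529.5 and 517 CPM, a rise of 6.62 ± 0.11. EGR3 and EGR2 rose by 6.78 and 6.51, KLF6 by 3.75 and KLF2, which restrains monocyte activation, by 3.79. NR4A3 rose by 7.90, or by 9.18 without DMSO replicate 2. KLF13 and KLF16 fell, with log2 changes of -0.84 and -0.40.

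Dual-specificity phosphatases, which remove phosphate from MAP kinases, were mixed beyond DUSP8, with 8 of 14 higher, 5 lower and a median of 0.68. DUSP16, another JNK phosphatase, read 2.82, 3.15 and 2.999 CPM with DMSO and 290.3, 283 and 283 CPM with CC-885, a rise of 6.58 ± 0.074 (adjusted p = 2.05e-18). DUSP1, a nuclear phosphatase of p38 and JNK, read 0.741, 1.01 and 0.953 CPM and then 49.5, 54.1 and 50.8 CPM, a rise of 5.82 ± 0.14. No CC-885 library overlapped a DMSO library in either gene. DUSP10, a phosphatase of the same kinases, rose by 2.48, and DUSP6, which acts on ERK, by 0.54. DUSP7 and DUSP9, which also prefer ERK, were lower, at -1.64 and -1.55.

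Of 16 tested chemokines 10 rose and 2 fell, with a median of 1.94. A further 8 of the 24 listed chemokines did not pass the count filter. CCL3, which attracts monocytes and T cells, read 0.821, 0.682 and 0.635 CPM with DMSO and 62.2, 67.4 and 66.95 CPM with CC-885, a rise of 6.52 ± 0.12 (adjusted p = 3.3e-16). IL8, the neutrophil chemokine now named CXCL8, read 2.16, 2.03 and 3.34 CPM and then 217, 243 and 233 CPM, a rise of 6.53 ± 0.57. CCL4 rose by 7.39, from 0.060, 0.0175 and 0.0397 CPM to 6.19, 7.52 and 6.66 CPM. The groups were separate in all 3 genes, but CCL4 has the near-identical copy CCL4L1 and CCL3 has CCL3L3, between which reads may be divided. CCL20, the ligand of CCR6, rose by 3.67, and CCL22, a ligand of CCR4, fell by 1.66. CCL2, the ligand of CCR2, did not pass the test at 0.24 ± 0.25.

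Of 24 cytokine and growth factor genes tested, of 32 listed, 15 rose and 6 fell, with a median of 2.25. IL1B, the inflammasome-processed interleukin, read 0.821, 0.892 and 1.09 CPM with DMSO and 311, 255 and 248 CPM with CC-885, a rise of 8.18 ± 0.13. IL1A had no count with DMSO and 104, 83 and 85 counts with CC-885. Taking 3 counts over the DMSO group as the floor, it was at least 94.4-fold higher. LIF, a cytokine of the interleukin-6 family, read 0.1001, 0.0525 and 0.179 CPM and then 8.001, 6.702 and 6.85 CPM, a rise of 6.02 ± 0.23 (adjusted p = 7.35e-13). TNF, the central inflammatory cytokine, read 1.56, 0.892 and 0.755 CPM and then 14.98, 14.3 and 14.8 CPM, a rise of 3.79 ± 0.19. HBEGF, a ligand of the EGF receptor, read 5.78, 5.49 and 5.14 CPM and then 176, 165 and 172 CPM, a rise of 4.96 ± 0.10. In each of these 5 genes every CC-885 library was higher than every DMSO library. VEGFA and GDF15, which are secreted in stress, rose by 2.83 and 3.08. TNFSF10 (TRAIL), a death ligand, and IL16, a T cell attractant, had log2 changes of -2.66 and -2.82, and TGFB1 fell by 1.55.

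NF-kB subunits and inhibitors rose in 14 of 19 cases and fell in 2, with a median of 1.29. RELB, a subunit of the non-canonical pathway, read 8.49, 7.01 and 6.87 CPM with DMSO and 77.1, 83.7 and 81.5 CPM with CC-885, a rise of 3.44 ± 0.086 (adjusted p = 7.55e-15). NFKB1 and NFKB2, the precursors of p50 and p52, rose by 2.31 and 2.38. RELA, the main activating subunit, did not pass the test at 0.09 ± 0.054. Inhibitors rose alongside: NFKBIA, which holds NF-kB in the cytoplasm, read 51.4, 49.8 and 43.6 CPM and then 78.6, 85.7 and 83.9 CPM, a rise of 0.78 ± 0.068. TNFAIP3 (A20), a ubiquitin-editing brake, rose by 2.75 and CYLD, a deubiquitinase, by 2.16. IKBKE and TNIP1 fell, with log2 changes of -0.65 and -0.57. The Toll-like and interleukin-1 receptor signalling genes, upstream of IRAK4, beside it and below it, were divided. Of 33 tested 15 were higher and 12 lower at a median of 0.40, or 14 and 14 under upper-quartile or library-size scaling. TRAF6, the ubiquitin ligase below IRAK4, rose by 2.21, IRAK2 by 2.98 and PELI1 by 3.07. MYD88, the adaptor that recruits IRAK4, fell by 0.98, TLR2, the receptor for bacterial lipoproteins, fell by 1.84, and TLR4, the endotoxin receptor, fell by 0.52. CD180, a receptor related to TLR4, read 13.2, 15.1 and 7.47 CPM and then 1.15, 1.11 and 1.09 CPM and fell by 3.42 ± 0.33. IRAK1 did not pass the test at 0.06 ± 0.055.

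**Figure D3:**
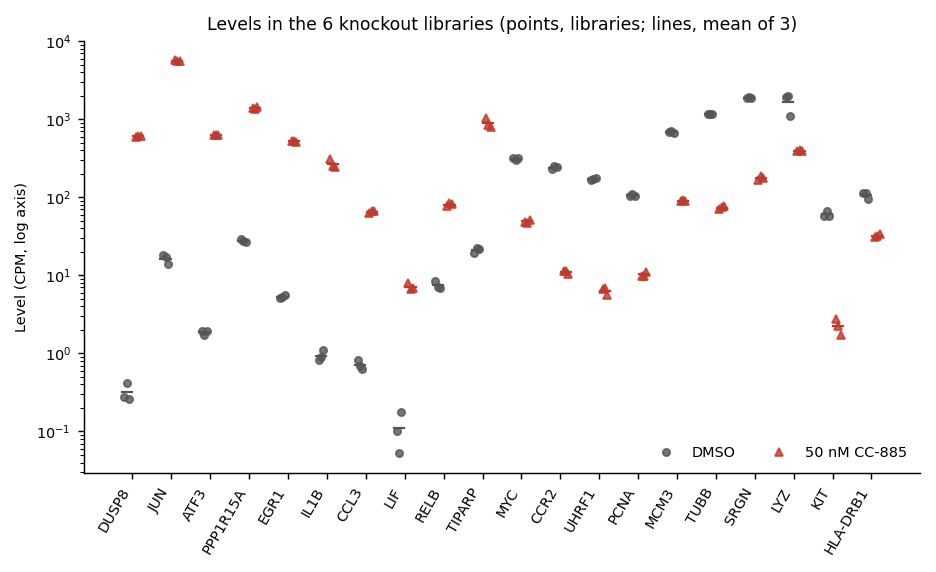
Level of 20 named genes in each of the 6 knockout libraries (vertical log axis, CPM), DMSO and CC-885 side by side, 1 point per library with the group mean as a line. JUN, ATF3, DUSP8 and the other raised genes have CC-885 points above all DMSO points, and LYZ shows DMSO replicate 3 at 1111 CPM below its group.

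Interferon genes were listed as inducing factors and receptors on one side and as effectors on the other. Of 23 factors and receptors 11 rose and 10 fell at a median of -0.10, which became 10 and 11 under upper-quartile scaling and 11 and 11 under library-size scaling. IFNB1, the gene of interferon beta, had no count with DMSO and 35, 33 and 54 counts with CC-885, and was at least 42.4-fold higher by the same floor of 3 counts. IRF7, which amplifies interferon induction, rose by 3.61, whereas IRF8, a monocyte lineage factor, fell by 1.45. Of 32 interferon effectors 5 rose and 15 fell, with a median of -0.36. ISG20, IFIT2 and OASL rose by 2.75, 2.10 and 1.94. CMPK2 and RSAD2 (viperin), antiviral neighbours in the genome, were lower, at -1.70 and -1.48, and BST2 (tetherin) fell by 1.36. MX2, a GTPase that blocks viral entry into the nucleus, read 37.2, 39.2 and 36.03 CPM with DMSO and 22.03, 23.7 and 22.4 CPM with CC-885 and fell by 0.72 ± 0.17 (adjusted p = 0.00177). ISG15, MX1 and IFIT1 measured -0.86 ± 0.26, -0.19 ± 0.21 and 0.74 ± 0.70, of which MX1 and IFIT1 did not pass the test. SAMD9 fell by 0.89, but this was lost without DMSO replicate 3, at -0.80 (adjusted p = 0.0605), and without CC-885 replicate 3, at -0.78 (adjusted p = 0.0639).

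Of 40 DNA replication genes 39 fell and 0 rose, with a median of -2.10. ORC6, of the origin recognition complex, was the member that did not pass the test, at -0.10 ± 0.071. PCNA, the sliding clamp of DNA polymerase, read 104, 110.0 and 105 CPM with DMSO and 9.92, 9.94 and 11.2 CPM with CC-885 and fell by 3.36 ± 0.089 (adjusted p = 1.22e-14). MCM3, a subunit of the replicative helicase, read 693, 714 and 673 CPM and then 90.6, 92.7 and 89.5 CPM and fell by 2.93 ± 0.056. UHRF1, which brings DNMT1 to newly made DNA, read 165, 172 and 179 CPM and then 6.64, 6.81 and 5.61 CPM and fell by 4.76 ± 0.081. The groups of all 3 genes were far apart, and their E2F matches are among the sequences above. RRM2, which supplies deoxynucleotides, and FEN1, which trims Okazaki fragments, had log2 changes of -4.01 and -3.66. DNMT1 and RPA2, at -0.26 and -0.21, were the called members that fell least.

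Control genes of the G1 to S transition moved largely the same way, with 20 of 29 tested members lower, 8 higher and a median of -0.90. The cyclins CCNE1 and CCNE2, which start S phase with CDK2, fell, with log2 changes of -3.14 and -3.56. E2F1, E2F2 and E2F8 of the E2F family were lower, at -2.05, -3.79 and -3.83. The pocket protein RB1, which restrains E2F, rose by 1.15. CDKN1A (p21), an inhibitor of cyclin-dependent kinases, read 39.6, 37.1 and 33.01 CPM with DMSO and 393, 384 and 395 CPM with CC-885, a rise of 3.42 ± 0.14 (adjusted p = 9.6e-11). Of 40 mitotic genes 31 were lower and 2 higher, with a median of -0.76. SPC24 and SPC25 of the kinetochore had log2 changes of -3.87 and -3.27, and MKI67, the proliferation marker, fell by 1.38. CDC20, an activator of the anaphase-promoting complex, read 883, 824 and 806 CPM and then 1049, 1126 and 1158 CPM, a rise of 0.41 ± 0.10 that was lost under upper-quartile scaling, at 0.26 (adjusted p = 0.0504). CCNB1, the mitotic cyclin, did not pass the test at 0.06 ± 0.072.

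Replication-dependent histone genes rose while the replication machinery fell. Of 51 tested genes, of 64 listed, 49 rose, all at least 2-fold, 0 fell, and the median was 3.88. HIST1H1E, a linker histone, read 0.2201, 0.175 and 0.258 CPM with DMSO and 25.1, 25.1 and 26.4 CPM with CC-885, a rise of 6.87 ± 0.20 (adjusted p = 4.51e-14). HIST1H1C, another linker histone, read 4.86, 4.88 and 4.85 CPM and then 131, 135 and 144 CPM, a rise of 4.81 ± 0.12. HIST1H2AC, a core histone, read 0.8805, 0.927 and 0.516 CPM and then 35.9, 33.3 and 36.03 CPM, a rise of 5.49 ± 0.14. No library of either treatment overlapped the other in these 3 genes. HIST1H4C rose by 4.32, while HIST1H2BH and HIST1H2BM did not pass the test at 0.09 ± 0.13 and -0.03 ± 0.77. Most mRNAs of these genes normally end in a stem-loop without a polyA tail, and the libraries were selected by polyA, so the values describe polyadenylated forms. Many members are near-identical copies between which reads may be divided.

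MYC and its partners had no common direction, with 5 of 12 tested members higher, 6 lower and a median of -0.11. MYC, a driver of growth and ribosome synthesis, read 318, 305 and 321 CPM with DMSO and 49.1, 47.1 and 51.7 CPM with CC-885 and fell by 2.67 ± 0.068 (adjusted p = 9.12e-15). MXD1, which competes with MYC for MAX, rose by 3.66, and MXD3 fell by 3.25. Ribosome biogenesis genes, many of them MYC targets, were 14 of 40 higher and 20 lower, with a median of -0.26. NOB1 and NHP2, which mature ribosomal RNA, fell, with log2 changes of -1.97 and -1.91, and NCL (nucleolin) fell by 0.61. RRN3, an initiation factor of RNA polymerase I, rose by 2.02 and DDX21, a nucleolar helicase, by 1.10.

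Cytosolic ribosomal proteins fell in 65 of 78 cases and rose in 0, with a median of -0.53. RPL3, RPL7A and RPL23 were lower, at -1.62, -1.66 and -1.58, and RPS26 did not pass the test at -0.01 ± 0.064. These genes have many processed copies, so their counts carry an added uncertainty. Mitochondrial ribosomal proteins were 30 of 57 lower and 10 higher at a median of -0.31. Translation initiation and elongation factors were 17 of 38 higher and 12 lower at a median of 0.01, or 16 and 17 under upper-quartile scaling. EIF1, which guards start codon choice, read 219.8, 213 and 201 CPM with DMSO and 1413, 1459.8 and 1513 CPM with CC-885, a rise of 2.79 ± 0.058 (adjusted p = 1.05e-15). Its partner EIF5 rose by 2.01. EEF1A1, which delivers charged tRNA to the ribosome and is among the most counted transcripts here, read 8756, 9642 and 8703 CPM and then 1888, 1957 and 1937 CPM and fell by 2.23 ± 0.088. The groups of each factor were separate, in opposite directions.

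SR proteins and their kinases, which select splice sites, were 15 of 20 higher and 4 lower, with a median of 0.83. SRSF3 read 339.9, 356 and 380.2 CPM with DMSO and 2092, 2126 and 2171 CPM with CC-885, a rise of 2.57 ± 0.075 (adjusted p = 3.47e-14). CLK1 and CLK4, kinases that phosphorylate SR proteins, rose by 3.51 and 2.69. SRSF1 and SRPK1 had log2 changes of -1.23 and -1.03. Regulators of AU-rich mRNA decay were 14 of 20 higher and 5 lower, with a median of 0.54. ZFP36 (tristetraprolin), which destabilises TNF and other cytokine mRNAs, read 73.4, 66.1 and 61.9 CPM and then 1462, 1401 and 1411 CPM, a rise of 4.41 ± 0.12 (adjusted p = 4.48e-14). Its relative ZFP36L2 fell by 1.65, and BTG1 and BTG2, which recruit deadenylases, rose by 3.55 and 3.53. Zinc finger genes with a ZNF symbol, most of them DNA-binding repressors, were 309 of 479 tested higher and 91 lower, with a median of 0.70. ZNF697 and ZNF335 rose by 4.59 and 3.54, and ZNF367 fell by 3.68.

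p53 target genes were 16 of 24 tested higher and 6 lower, with a median of 0.80. PLK2, a stress-induced kinase, read 7.42, 8.53 and 7.33 CPM with DMSO and 219.5, 217 and 224 CPM with CC-885, a rise of 4.82 ± 0.091 (adjusted p = 5e-16). PMAIP1 (NOXA) and BBC3 (PUMA), which trigger mitochondrial cell death, rose by 3.40 and 2.35, and TNFRSF10B, a receptor of TRAIL, by 3.29. The classical p53 targets PHLDA3, ZMAT3 and FAS fell, with log2 changes of -1.64, -1.55 and -1.23, and BAX did not pass the test at -0.03 ± 0.067. THP-1 is known to lack functional p53, as background. BCL2 family genes were 7 of 15 tested higher and 6 lower at a median of -0.03, or 6 and 8 under upper-quartile scaling and 7 and 7 under library-size scaling. MCL1, the short-lived survival factor, rose by 0.94, and BCL2 and BCL2L1 were lower, at -1.28 and -0.49.

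Genes of sterol and fatty acid synthesis were 19 of 27 tested lower and 6 higher, with a median of -0.72. FDFT1 and SQLE, at the branch to sterols, had log2 changes of -1.66 and -1.27, while the regulator SREBF1 rose by 0.99. Glycolysis and hypoxia genes were 19 of 29 tested lower and 7 higher at a median of -0.49. LDHA and PGAM1 fell, with log2 changes of -1.88 and -1.99. HK2, the inducible hexokinase, read 17.97, 21.4 and 23.2 CPM and then 75.2, 60.8 and 57.9 CPM, a rise of 1.63 ± 0.15, and HIF1A, the hypoxia factor, rose by 1.91. Nuclear genes of the respiratory chain were 29 of 46 lower and 7 higher at a median of -0.40.

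NRF2, the antioxidant regulator encoded by NFE2L2, rose at the transcript level while most of its listed targets fell. NFE2L2 read 83.5, 94.5 and 84.4 CPM with DMSO and 849, 811 and 804 CPM with CC-885, a rise of 3.23 ± 0.073 (adjusted p = 2.63e-15). Of the 21 genes in that list, NFE2L2 included, 6 rose and 13 fell, with a median of -0.83. PRDX1, PGD and NQO1, which handle peroxide, NADPH and quinones, were lower, at -2.06, -1.61 and -1.11, and HMOX1 (haem oxygenase) rose by 0.81. ER folding and unfolded protein response genes were 17 of 28 lower and 8 higher at a median of -0.34. The sensor ERN1 (IRE1) rose by 2.52, the chaperones CALR and HSP90B1 had log2 changes of -1.60 and -1.18, and HSPA5 (BiP) did not pass the test at -0.11 ± 0.054. Heat shock chaperones were 10 of 24 tested higher and 10 lower at a median of -0.09, or 9 and 14 under upper-quartile scaling and 9 and 12 under library-size scaling. DNAJB2 and BAG3 rose by 2.68 and 2.05, and HSPE1 and HSPA8 fell, with log2 changes of -2.20 and -1.59.

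Protein and organelle turnover showed no common direction in its lists. Proteasome genes were 17 of 39 higher and 13 lower at a median of 0.06, or 16 and 16 under upper-quartile scaling. PSME4 rose by 1.69, and PSMB8, PSMB9 and PSMB5 were lower, at -1.56, -1.15 and -1.30. Lysosome and autophagy genes were 16 of 35 tested higher and 10 lower at a median of 0.09, or 13 and 13 under upper-quartile scaling. SQSTM1 (p62), an autophagy receptor, read 109, 107 and 98.8 CPM with DMSO and 1406, 1423 and 1462 CPM with CC-885, a rise of 3.77 ± 0.071 (adjusted p = 5.28e-16). MAP1LC3B, the autophagosome marker, rose by 2.90 and the lysosome regulator TFEB by 1.48. NPC2 and CTSA of the lysosomal lumen had log2 changes of -1.27 and -1.04.

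Myeloid identity genes were mostly lower. Of 33 tested monocyte and macrophage markers 21 fell and 8 rose, with a median of -0.64. LYZ, the lysozyme of monocytes, read 1939, 2007 and 1111 CPM with DMSO and 395, 399 and 392.3 CPM with CC-885 and fell by 2.09 ± 0.21, with DMSO replicate 3 well below its group but still above every CC-885 library. CSF1R, the receptor for the macrophage growth factor, and TYROBP, an adaptor of many myeloid receptors, fell, with log2 changes of -2.25 and -2.08. SPI1 and CEBPA, which set the myeloid programme, were lower, at -0.31 and -1.04. CD83, an activation marker of antigen-presenting cells, rose by 4.71. Granule genes of granulocyte progenitors were 13 of 15 lower and 0 higher, with a median of -2.01. SRGN, the proteoglycan core of granules, read 1893, 1943 and 1852 CPM and then 167, 189.9 and 176 CPM and fell by 3.42 ± 0.19 (adjusted p = 1.23e-08). RNASE2, a secreted ribonuclease, read 632, 663 and 727 CPM and then 49.7, 56.6 and 52.7 CPM and fell by 3.67 ± 0.18. ELANE, PRTN3 and CTSG, the neutrophil serine proteases, had log2 changes of -2.29, -2.51 and -2.20, and AZU1 fell by 0.94.

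The HOXA and stem-like list was 11 of 18 tested lower and 6 higher, with a median of -0.37. KIT, the stem cell factor receptor, read 57.3, 67.3 and 58.01 CPM with DMSO and 2.78, 2.25 and 1.72 CPM with CC-885 and fell by 4.75 ± 0.20. MYB and HOXA10 fell, with log2 changes of -1.27 and -1.83, while HOXA9 rose by 0.61 and its cofactor PBX3 by 1.40. Polycomb genes were 14 of 29 higher and 8 lower at a median of 0.22. The methyltransferase EZH2 and the ubiquitin ligase RNF2 rose by 1.49 and 2.11. The chromodomain readers CBX2, CBX6, CBX7 and CBX8 were lower, at -4.31, -2.15, -2.06 and -2.0.

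Antigen presentation genes were listed by class. All 11 tested MHC class II genes, of 13 listed, were lower, with a median of -1.74. HLA-DRB1 read 115, 114 and 94.95 CPM with DMSO and 30.8, 32.4 and 33.8 CPM with CC-885 and fell by 1.74 ± 0.098 (adjusted p = 9.94e-11). CIITA, the master regulator of the class, fell by 2.87 and the invariant chain CD74 fell by 0.92. MHC class I genes were 6 of 16 higher and 7 lower at a median of -0.03. HLA-E, which binds the NK cell receptor NKG2A, read 126, 116 and 121 CPM and then 395, 413 and 429 CPM, a rise of 1.77 ± 0.078, while TAPBP (tapasin), which loads peptide, fell by 1.96. Reads of HLA genes may be divided between similar copies.

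Adhesion genes were 14 of 21 tested lower and 3 higher, with a median of -0.80. SELPLG, the selectin ligand of leukocytes, fell by 3.89 and PECAM1 fell by 2.12, while ICAM1 rose by 1.28. Surface checkpoint genes were 9 of 15 lower and 1 higher at a median of -0.71. CD47, the signal that blocks phagocytosis, fell by 1.71, and CD274 (PD-L1) did not pass the test at -0.17 ± 0.35. Tubulins were 10 of 15 tested lower and 3 higher at a median of -0.80. TUBB, a main beta tubulin, read 1171, 1173 and 1164 CPM with DMSO and 70.05, 75.2 and 76.5 CPM with CC-885 and fell by 3.98 ± 0.070 (adjusted p = 3.16e-16). TUBA1B and TUBB4B had log2 changes of -2.12 and -0.72, and TUBB3 rose by 3.65 from a low level.

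The aryl hydrocarbon receptor list, of a ligand-activated regulator and its targets, was 5 of 8 higher and 2 lower, with a median of 1.91. TIPARP, a target that feeds back on the receptor, read 19.6, 22.6 and 22.1 CPM with DMSO and 1029, 850.4 and 802 CPM with CC-885, a rise of 5.38 ± 0.099 (adjusted p = 3.77e-16). CYP1A1, its best-known target, read 0.1601, 0.105 and 0.159 CPM and then 10.5, 4.05 and 3.47 CPM, a rise of 5.41 ± 0.51. Replicate 1 was highest in both genes under CC-885, and without it the CYP1A1 rise was 4.72. AHR itself rose by 3.31 and CYP1B1 by 3.17. Eicosanoid genes were 4 of 13 tested higher and 9 lower at a median of -0.35. PTGS2 (COX-2) rose by 6.09 ± 0.096, from 0.821, 0.962 and 0.735 CPM to 59.7, 56.7 and 56.2 CPM. ALOX5AP and PTGS1 fell, with log2 changes of -0.89 and -0.69. ABC transporters other than ABCB1 were mixed, so that 6 of 21 tested were higher and 11 lower, with a median of -0.21. ABCB4, the neighbour of ABCB1, rose by 2.26, and ABCC4 fell by 1.85.

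The response also varied with gene structure, given here as a description over genes, which are not replicates. Of the genes tested, 14555 (90.9%) were matched to GENCODE v29, and the 13475 protein-coding ones were grouped by the exons of the transcript with the longest coding part. Genes of 2 exons had a median log2 change of -0.35 (658 genes, 30.1% higher and 50.2% lower). Genes of 3 to 5 exons had -0.31 (2755 genes, 32.8% higher), genes of 6 to 10 exons -0.09 (4000 genes, 38% higher) and genes of 11 to 20 exons 0.09 (3830 genes, 44.1% higher). Genes of 21 or more exons had 0.24 (1862 genes, 49.7% higher and 30.9% lower). The 370 genes of 1 exon had -0.17, or -0.40 without the histones. The median level moved with exon number, from 7.90 CPM at 2 exons to 45.6 CPM at 21 or more, and its part in the pattern was not tested. Of 120 tested snoRNA genes 7 rose (5.83%) and 41 fell (34.2%), with a median of -0.63. Over all genes tested 38.9% rose and 40.0% fell, so the share that fell was not raised. The snoRNA genes had a median level of 0.261 CPM, near the floor. Among all genes under 1 CPM, 27.5% were higher and 29.4% lower.

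**Figure D4:**
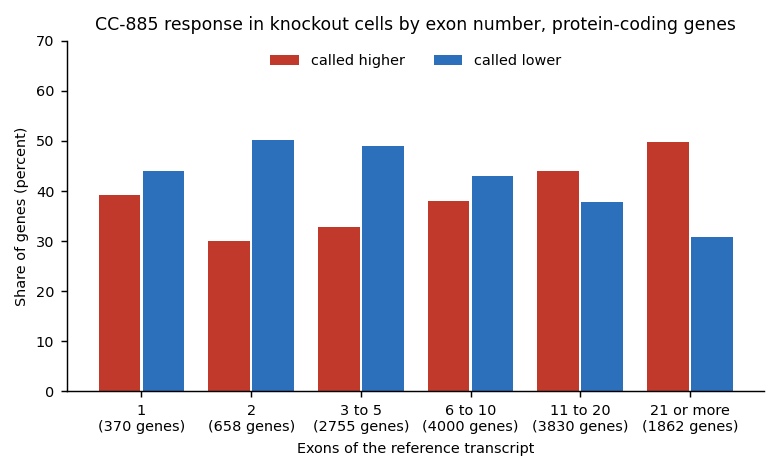
Share of protein-coding genes called higher (red bars) and lower (blue bars) under CC-885 in knockout cells (vertical axis, percent) by number of exons of the reference transcript in GENCODE v29 (horizontal axis, bins from 1 to 21 or more, with the number of genes in each). The share called higher climbs from 30.1% at 2 exons to 49.7% at 21 or more, and the share called lower drops from 50.2% to 30.9%.

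Whether the knockout response differed from the wild-type response was tested by the interaction, which is the knockout log2 change minus the wild-type log2 change. The 2 responses share no library. The interaction was called for 5562 genes (34.7%), 2871 higher (17.9%) and 2691 lower (16.8%) in knockout. The balance of these calls depended on scaling, since upper-quartile factors gave 2168 higher and 3291 lower, and testing without the low-count filter gave 1993 and 3185. Both genotypes nevertheless moved the same way in most genes: 5108 genes rose in both and 5122 fell in both, whereas 104 rose in knockout and fell in wild type and 89 did the reverse. Leaving out wild-type CC-885 replicate 3 raised the interaction calls to 3627 higher and 3245 lower, so the interferon genes are also given without it.

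Interferon effectors differed between the genotypes. Of 32 tested, 28 rose and 1 fell in wild type at a median of 1.35, against 5 and 15 in knockout at -0.36, and 27 had a lower response in knockout and 0 a higher one. Without wild-type CC-885 replicate 3 the count was 28 at a median interaction of -1.25, compared with -1.70 with it. Among libraries with the prefix 51 alone, whose only wild-type DMSO library is replicate 1, the median interaction was -1.43. MX2 in wild type read 17.9, 24.3 and 21.5 CPM with DMSO and 109, 112 and 174 CPM with CC-885, so the interaction was -3.35 ± 0.24 (adjusted p = 2.38e-06). The wild-type rise had no counterpart in knockout, where every CC-885 library was below every DMSO library. SAMD9, an antiviral factor, read 54.2, 51.1 and 50.3 CPM and then 109, 123 and 255 CPM in wild type, for an interaction of -2.53 ± 0.41, or -1.89 among libraries with the prefix 51.

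Amino acid stress genes responded less in knockout. Of the 17 serine, one-carbon and asparagine genes 12 had a lower response and 1 a higher one, with a wild-type median of 1.30. PSAT1 and PSPH rose by 1.30 and 1.53 in wild type, where knockout cells had shown falls. Of the 15 stress transcription factors 9 responded less and 1 more in knockout, among them TRIB3, an inhibitor of ATF4 signalling, at 2.34 against 3.93 in wild type, and ATF5 at 1.11 against 2.91. CHAC1, a glutathione-degrading ATF4 target, read 2.18, 1.84 and 1.45 CPM and 10.6, 10.9 and 11.1 CPM in knockout and 1.05, 0.765 and 1.06 CPM and 57.04, 56 and 43.6 CPM in wild type, an interaction of -3.19 ± 0.22 (adjusted p = 1.48e-07). INHBE, a subunit of activin E, read 0.5203, 0.507 and 0.496 CPM and 5.08, 5.51 and 4.87 CPM in knockout and 0.1496, 0.222 and 0.144 CPM and 19.7, 21.9 and 21.3 CPM in wild type, an interaction of -3.58 ± 0.24 (adjusted p = 1.02e-07). Both genes rose in both genotypes, and the wild-type CC-885 libraries were the highest. STC2, a secreted stress glycoprotein, had an interaction of -3.43 ± 0.45. It was -5.58 among libraries with the prefix 51, whose only wild-type DMSO library is replicate 1.

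**Figure D5:**
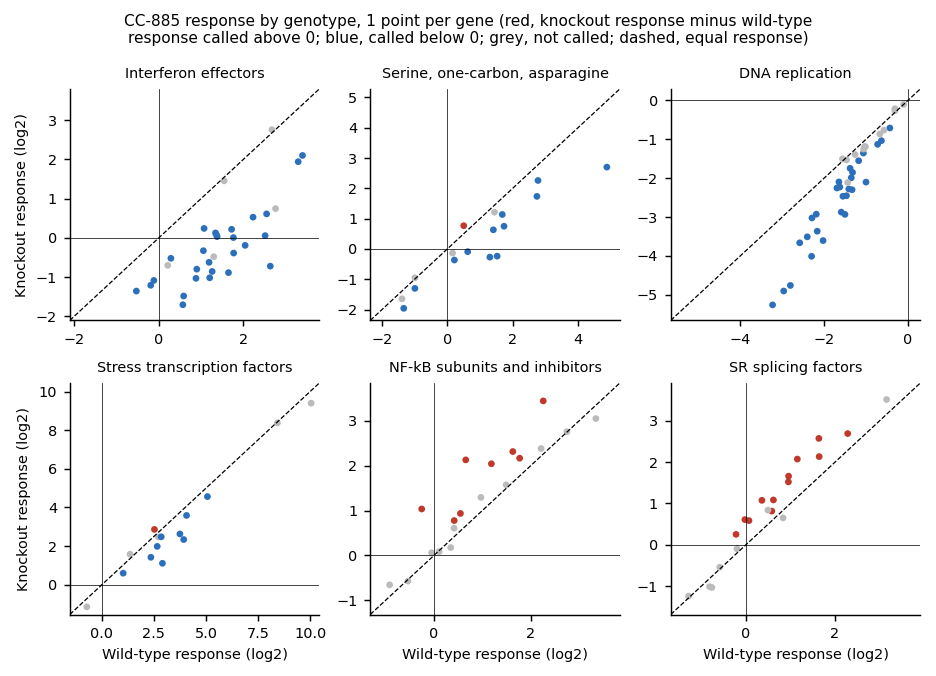
Log2 fold change under CC-885 in knockout (vertical axis) against wild type (horizontal axis) for the members of 6 gene lists, 1 panel per list and 1 point per gene, with a dashed line of equal response and colours for the interaction (red called higher in knockout, blue called lower, grey not called). Most interferon effectors lie below the line, with wild-type values above 0 and knockout values near or under 0, serine and one-carbon genes lie mostly below it, and SR splicing factors mostly above it.

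Replication genes fell further in knockout, with 28 of 40 at a lower response, 0 at a higher one and medians of -2.10 in knockout and -1.42 in wild type. UHRF1 had an interaction of -1.96 ± 0.10 (adjusted p = 1.07e-08) and RRM2 of -1.71 ± 0.11. Of 29 genes of the G1 to S transition 16 had a lower response and 3 a higher one. Granule genes had a lower response in 9 of 15 and a higher one in 0, with SRGN at -1.67 ± 0.25 and RNASE2 at -1.64 ± 0.23. Of 21 NRF2 genes 11 were lower and 1 higher, and of 28 ER folding genes 14 were lower and 1 higher.

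Cytokine, chemokine and AP-1 genes had interaction calls in both directions, as did all genes tested, of which 17.9% were higher and 16.8% lower in knockout. The response was higher in knockout for 5 and lower for 7 of 24 cytokines, higher for 2 and lower for 4 of 16 chemokines, and higher for 5 and lower for 4 of 16 AP-1 subunits. Members with a larger rise in knockout included LIF, TNF and JUN. LIF read 0.705, 0.685 and 0.758 CPM with DMSO and 2.95, 2.53 and 2.81 CPM with CC-885 in wild type, for an interaction of 4.08 ± 0.33 (adjusted p = 6.13e-07). TNF and RELB had interactions of 1.84 ± 0.24 and 1.18 ± 0.11, JUN of 1.12 ± 0.14 and DUSP8 of 2.22 ± 0.21. Of the 19 NF-kB subunits and inhibitors 8 had a higher response in knockout and 0 a lower one. Without wild-type CC-885 replicate 3 these counts were 10 and 2. THBS1, a matrix glycoprotein, read 0.2001, 0.437 and 0.437 CPM and 18.8, 15.4 and 13.99 CPM in knockout and 0.492, 0.604 and 0.361 CPM and 2.23, 2.8 and 2.37 CPM in wild type, for an interaction of 3.12 ± 0.35. Among SR splicing genes 12 of 20 had a higher response and 0 a lower one, SRSF3 at 0.93 ± 0.10. CYP1A1 in wild type stayed at 0.097, 0.136 and 0.182 CPM with CC-885, and its interaction was 4.37 ± 1.41 (adjusted p = 0.0307). That call was lost in many alternatives, for example without wild-type DMSO replicate 1 (adjusted p = 0.15). It was kept without knockout CC-885 replicate 1, at 3.69 (adjusted p = 0.000912). ZNF462, a zinc finger gene, and AASS, a lysine-degrading enzyme, had interactions of 2.22 ± 0.38 and 2.21 ± 0.32. RAB33A, a small GTPase, had one of -2.70 ± 0.19 in the other direction.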

How the data were processed

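PolyA-selected RNA of the 12 libraries was analysed from the deposited table of raw counts per gene symbol, which has no normalization. The authors made the counts with HISAT2 2.0.5 and featureCounts 1.5.2 on GRCh38 after FastQC 0.11.2, per the submitters' processing notes, while the extraction protocol in the labels names a mouse build. The symbols are human. The sources used here do not give the strand setting or the handling of reads with several matches, so overlapping antisense genes and near-identical copies cannot be told apart.

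A filter on low counts (filterByExpr, by group) left 16010 of 30017 symbols, holding 99.98% of all counts. The quasi-likelihood test of edgeR 4.0.16 (R 4.3.3, robust, TMM factors of 0.94 to 1.055) used 1 coefficient for each of the 4 groups over the 12 libraries. Benjamini-Hochberg adjustment ran over all 16010 genes, and genes were called at an adjusted p under 0.05. Standard errors come from the F statistic.

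The gene lists and the genes named were chosen with earlier results of these data known. Named genes are IRAK4, GSPT1, CRBN and MYC, the 12 largest rises and 12 largest falls with 5 CPM in the higher group and no overlap (uncharacterised, open reading frame and antisense symbols left out), the 6 largest interactions each way, and list members. List members were named for the smallest p in the direction of the list median, the largest change the other way, or their role. Promoters are from RefSeq. DESeq2 1.42.0, other scalings, filters, blocks and left-out libraries were tried.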

Additional observations from a re-analysis of the deposited data

Results flagged for a closer look

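The responses of knockout and wild-type cells to CC-885 differed for the genes and lists below by edgeR's interaction test. Each value is the knockout log2 change minus the wild-type log2 change, and the adjusted p was under 0.05 for every gene given here.

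Among genes with a higher value in knockout, IRAK4 differed by 1.41, GSPT1 by 0.54, DUSP8 by 2.22 and JUN by 1.12. The inflammatory genes LIF, IL1B and CCL4 differed by 4.08, 0.94 and 1.96, and THBS1 by 3.12. NR4A3 differed by 1.72, MB21D2 by 1.13, HIST1H1E by 1.28, CYP1A1 by 4.37, ZNF462 by 2.22 and AASS by 2.21. Several of these calls were lost in alternatives. Without wild-type DMSO replicate 1, NR4A3 had an adjusted p of 0.135 and CYP1A1 of 0.15, and without knockout DMSO replicate 2, CCL4 had 0.123. The MB21D2 difference was 0.61 (edgeR adjusted p = 0.3) without wild-type DMSO replicate 3 and 0.86 (adjusted p = 0.0954) without knockout DMSO replicate 3. Among libraries with the prefix 51, whose only wild-type DMSO library is replicate 1, the MB21D2 difference was 0.23. The IL1B call was lost there as well, at a difference of 0.99. HIST1H1E had an adjusted p of up to 0.0864.

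Among genes with a lower value in knockout, the stress genes INHBE, CHAC1 and STC2 differed by -3.58, -3.19 and -3.43. The interferon genes MX2 and SAMD9 differed by -3.35 and -2.53, and RAB33A by -2.70. Genes of replication and chromatin differed as well, with FAM111B at -2.03, DSCC1 at -1.94, UHRF1 at -1.96 and CBX2 at -1.26. MYC stood at -0.93. The surface, secreted and signalling genes WNT7B, KIT, CCR2, TIFAB, AOC1 and SERPINB2 differed by -2.12, -1.63, -1.68, -2.25, -1.67 and -1.68, HPDL by -1.85 and CIDEB by -0.62.

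By list, the number of members called in the commoner direction was 9 of 15 stress transcription factors, 12 of 17 serine, one-carbon and asparagine genes, 27 of 32 interferon effectors, 28 of 40 replication genes, 16 of 29 genes of the G1 to S transition, 11 of 21 NRF2 genes, 14 of 28 ER folding genes and 9 of 15 granule genes, all lower in knockout. It was 12 of 20 SR splicing genes and 5 of 8 aryl hydrocarbon receptor genes, both higher in knockout. Over all genes, 17.9% were higher and 16.8% lower.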

How the results depend on the processing

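Leaving out each library in turn gave 6021 to 6489 genes higher and 6085 to 6714 lower in knockout, 3410 to 3497 and 3174 to 3307 of them at least 2-fold, and interaction counts of 2382 to 3627 higher and 2269 to 3245 lower. None of the 12627 knockout calls was called in the opposite direction in any of the 22 alternatives that gave a knockout fit. Calls that were lost were not checked for a change of sign. The counts of calls stayed within 1.5 times under each of them. Replicate numbers did not pair the libraries, with correlations of the deviations of -0.03, -0.0042 and 0.011, and the replicate block gave 6250 higher and 6432 lower calls and 2884 and 2714 interactions, keeping 12551 of the knockout calls. DESeq2 gave 6295 and 6384. Without knockout DMSO replicate 3, the library with the prefix 52, the counts were 6109 and 6201. Named results that lost their call were SAMD9 (edgeR -0.78, adjusted p = 0.0639, without knockout CC-885 replicate 3), AURKA (0.05, adjusted p = 0.508, under upper-quartile scaling) and CDC20 as given above. The markers CD14, KRT8 and COL1A1 lost theirs without knockout DMSO replicate 3, at 0.44 (edgeR adjusted p = 0.0546), -0.37 (0.141) and -0.79 (0.099), and in other alternatives. CD80 moved from 3.44 to 2.83 without knockout DMSO replicate 2, and to 4.14 without replicate 3. MEIS1 moved from 2.66 to 3.44 without knockout DMSO replicate 2. Depth limits genes near the floor of 3 counts, and that floor and the errors cover no uncertainty of read assignment. Relative scaling gives no amounts per cell.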

Other observations

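The rise of DUSP8 on chromosome 11 (1554044 to 1571920, minus strand, GRCh38) was accompanied by rises of overlapping and nearby genes, which were chosen after their values were seen. KRTAP5-AS1, an antisense transcript on the plus strand (1571353 to 1599184) that overlaps the first part of DUSP8, read 0, 0.035 and 0 CPM in the knockout DMSO libraries and 53.1, 50.1 and 54.2 CPM with CC-885. It was called higher (edgeR adjusted p = 6.02e-16), and no fold is given because of the near absence of counts with DMSO. KRTAP5-1 and KRTAP5-2, keratin-associated genes inside that antisense transcript on the other strand, had no count with DMSO. They had 74 and 49 counts over the CC-885 libraries, at least 25.7-fold and 17.0-fold higher by the floor of 3 counts over the group. Farther out, BRSK2, a kinase gene, rose by 1.39 ± 0.15, and MOB2 fell by 0.49 ± 0.091. Whether counting used strand is not stated, so reads of DUSP8, KRTAP5-AS1 and the KRTAP5 genes cannot be told apart where they overlap.

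Other genes had no count in any knockout DMSO library and were also chosen after their values were seen. HIST1H1T, the testis linker histone, had 173, 100 and 102 counts with CC-885, at least 130-fold higher. SHISA2, a regulator of receptor maturation, had 103, 78 and 66 counts, at least 85.7-fold higher. The interleukin-10 family cytokine IL24 had 42, 10 and 35 counts, at least 30.2-fold higher, and its relative IL19 had 22, 12 and 12, at least 16-fold higher. NPPC, a natriuretic peptide gene, had 36, 16 and 31 counts, at least 28.8-fold higher. The raw count was highest in CC-885 replicate 1 in each of these 5 genes. That library was also the deepest of its group, at 56675539 counts against 49048612 and 49002893. These gene counts are not scaled for depth.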
